A study of Mus musculus with 10 samples.

Results

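The AP-1 transcription factor genes were followed here in the hippocampus of mice after subarachnoid hemorrhage (SAH), a bleed into the fluid space around the brain. The set holds 9 genes, chosen by gene name from the 24391 gene names counted: the FOS family (Fos, Fosb, Fosl1 and Fosl2), the JUN family (Jun, Junb and Jund), and Atf3 and Maff, which encode related leucine zipper proteins. They were singled out as a family with the lower Fos counts of the SAH mice already known. Their differences between SAH and the other groups are therefore given as descriptions, and no p-values of them are printed. A call of a member in these comparisons says only that it passed a threshold, and it is not a test of the family. Male mice (C56BL/6J as the study spells the strain, 10 to 14 weeks old) fell into 3 groups, with 1 library of both whole hippocampi per mouse, taken 4 days after surgery. In SAH mice (n = 4, mice 1 to 4) a filament passed up through the external carotid artery punctured the circle of Willis on one side, and animals entered the study only after a large drop in cerebral blood flow. In Sham mice (n = 3, mice 5 to 7) the same operation stopped short of the perforation, and Naive mice (n = 3, mice 8 to 10) had no operation. The labels record no drug treatment, and Sham and Naive mice together (n = 6) are called control. The time of day and the order of tissue collection are not given in the sources used here.

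AP-1 is a dimer. A FOS protein must pair with a JUN protein to bind DNA at the TGANTCA element, whereas JUN proteins can also pair with each other or with ATF and MAF proteins. Fos, Fosb, Junb and, to a lesser degree, Jun are immediate-early genes of neurons: calcium entry and kinase signalling act on factors already bound at their promoters, chiefly serum response factor (SRF) at the CArG box and CREB at the cAMP response element, and transcription starts within minutes, without new protein synthesis. Their transcripts decay quickly, so the level in a tissue follows recent activity. Jund is expressed more steadily, and Fosl1, Atf3 and Maff are low in resting brain and are known for their induction by injury, stress or inflammation.

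The promoter sequences of the 3 members that fell in SAH, and of Jun, which was not called, were read from mm9 as the 300 bases that end 51 bases before the annotated start. They are shown to set the promoters of the changed members beside that of a JUN gene that did not pass the test. Capitals mark matches to the CArG box (CC, then 6 letters that are each A or T, then GG) and to TGACG or its reverse complement CGTCA, the core of the cAMP response element. The windows are chr12:86814501-86814800 on the plus strand for Fos, chr7:19895445-19895744 on the minus strand for Fosb, chr8:87502698-87502997 on the minus strand for Junb and chr4:94718964-94719263 on the minus strand for Jun.
Fos: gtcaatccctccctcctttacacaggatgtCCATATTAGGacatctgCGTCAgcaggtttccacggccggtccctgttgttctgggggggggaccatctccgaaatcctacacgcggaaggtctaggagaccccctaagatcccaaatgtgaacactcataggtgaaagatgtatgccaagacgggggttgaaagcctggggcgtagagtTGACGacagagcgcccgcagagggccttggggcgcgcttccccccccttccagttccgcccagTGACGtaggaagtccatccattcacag
Fosb: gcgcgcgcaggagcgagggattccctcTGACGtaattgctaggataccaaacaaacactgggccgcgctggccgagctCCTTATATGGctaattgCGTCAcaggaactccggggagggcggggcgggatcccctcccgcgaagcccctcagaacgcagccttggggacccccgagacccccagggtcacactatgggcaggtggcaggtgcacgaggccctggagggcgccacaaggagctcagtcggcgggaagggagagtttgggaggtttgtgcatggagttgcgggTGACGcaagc
Junb: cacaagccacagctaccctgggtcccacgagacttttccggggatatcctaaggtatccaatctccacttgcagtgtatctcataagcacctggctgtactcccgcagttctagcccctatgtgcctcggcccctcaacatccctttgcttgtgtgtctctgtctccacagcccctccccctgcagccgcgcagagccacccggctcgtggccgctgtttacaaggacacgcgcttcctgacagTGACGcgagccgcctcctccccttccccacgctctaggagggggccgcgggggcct
Jun: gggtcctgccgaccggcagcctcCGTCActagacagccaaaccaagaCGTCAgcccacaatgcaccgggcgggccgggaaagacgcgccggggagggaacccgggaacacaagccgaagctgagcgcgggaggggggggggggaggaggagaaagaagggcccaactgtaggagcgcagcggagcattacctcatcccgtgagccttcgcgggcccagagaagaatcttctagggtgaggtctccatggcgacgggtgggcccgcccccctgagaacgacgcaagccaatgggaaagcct
In the 500 bases before the start, searched on both strands, a CArG box was found in 2 of the 9 members, Fos and Fosb, against 2.58% of 24181 genes. The box of Fos, CCATATTAGG, lay 320 to 311 bases before the start and that of Fosb, CCTTATATGG, lay 272 to 263 bases before it. TGACG was found in 6 of 9 members (28.6% of all genes), with 4 matches in Fos, 3 in Fosb, 3 in Fosl1, 2 in Jun and 1 each in Junb and Atf3. The full palindrome TGACGTCA, which contains TGACG, had a match in 0 of 9 members and in 2.38% of all genes. The AP-1 element TGANTCA itself was found in Fos and Maff (2 of 9, against 12.2% of all genes), and Fosl2 and Jund held none of the 4 motifs. These matches describe the letters of the windows and not binding, which was not measured.

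Between 19743388 and 27254655 read pairs per mouse were counted on genes. Of the 9 members, 8 passed the filter on low counts and were tested among 14993 genes. Levels are given as CPM, the read pairs of a gene with the depth of each library evened out by TMM scaling, and a gene was called where its adjusted p in edgeR's quasi-likelihood test over all tested genes was under 0.10. The libraries of SAH mice 3 and 4 and Sham mouse 7 stood apart in transcripts of the choroid plexus, a tissue inside the ventricle beside the hippocampus. The summed level of 4 of its markers was 1200, 847 and 812 CPM in these libraries and between 42.9 and 209 CPM in the other 7 mice. Calls were therefore also made without these 3 libraries.

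Fos, the founding member and the most widely used marker of recent neuronal firing (chromosome 12, 86814851 to 86818219, plus strand, 4 exons, mm9), had the lowest levels in SAH. It stood at 12.8, 16.7, 6.77 and 9.11 CPM in SAH mice 1 to 4, at 30.1, 24.2 and 28.0 CPM in the Sham mice and at 41.6, 47.4 and 33.2 CPM in the Naive mice. The 3 groups did not overlap: each SAH mouse lay below each Sham mouse, and each Sham mouse below each Naive mouse. SAH mice averaged 11.3 ± 4.33 CPM (SD, n = 4), whereas control mice averaged 34.1 ± 8.77 CPM (SD, n = 6). The log2 fold change was −1.57 (SE 0.231, 95% interval −2.07 to −1.07), or 2.97-fold lower. Of 14993 genes, 1 had a lower log2 fold change. In whole tissue, fewer cells that express a gene and less of its RNA per cell cannot be told apart, and this holds for each result that follows.

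Fosb (chromosome 7, 19888045 to 19895394, minus strand, 4 exons) is activated with Fos and is known for a stable short splice form, deltaFosB, that builds up with repeated activity. Counts summed over exons do not separate the forms. Its level was 6.38, 8.79, 10.7 and 9.67 CPM in SAH mice 1 to 4, 14.5, 12.1 and 12.7 CPM in Sham mice and 20.9, 22.9 and 14.2 CPM in Naive mice. All 4 SAH mice lay below all 6 control mice, while Sham and Naive overlapped. The log2 fold change between SAH and control was −0.86 (SE 0.195), and the gene was called.

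Junb (chromosome 8, 87500808 to 87502647, minus strand, 1 exon) encodes the JUN protein that is co-induced with Fos and that restrains Jun at many targets. It was measured at 62.1, 69.1, 49.8 and 44.8 CPM in SAH mice 1 to 4, at 82.5, 81.4 and 87.4 CPM in Sham mice and at 103.5, 108.5 and 88.8 CPM in Naive mice. As with Fos, the 3 groups stood apart in CPM, with SAH lowest and Naive highest. Group means in this order, with Sham between, were found in 24.4% of all tested genes. Among the 231 genes called as lower between SAH and control the share was 77.9%, so the order is not particular to these members. Junb differed by −0.70 on the log2 scale between SAH and control (SE 0.117) and was called.

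Of the other 2 JUN genes, Jun (chromosome 4, 94715727 to 94718913, minus strand, 1 exon) is the partner of most FOS proteins and a target of JNK, the stress kinase. It ranged from 70.0 to 112.1 CPM in SAH and from 95.4 to 118.5 CPM in control, and SAH mice 2 and 4 lay within the control range. The log2 fold change was −0.17 (95% interval −0.38 to 0.05), and the lowest mouse was SAH mouse 3. Jund (chromosome 8, 73221638 to 73224515, plus strand, 1 exon), the steadily expressed member, ranged from 74.9 to 93.5 CPM in SAH and from 87.1 to 103.5 CPM in control. Its log2 fold change of −0.11 had the narrowest interval of the members, −0.25 to 0.03. Neither gene was called, and these intervals leave room for a fall of up to 0.38 in Jun and 0.25 in Jund.

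Fosl2 (chromosome 5, 32438845 to 32460212, plus strand, 4 exons) encodes Fra-2, a FOS protein without a strong activation domain that is induced late. It stood at 63.7, 65.1, 38.9 and 63.3 CPM in SAH mice 1 to 4, at 79.6, 61.8 and 61.3 CPM in Sham mice and at 78.3, 99.7 and 58.2 CPM in Naive mice. Apart from SAH mouse 3, the SAH mice lay inside the control range, and the log2 fold change of −0.34 (SE 0.162) became −0.19 without that mouse. Fosl1 (chromosome 19, 5447698 to 5455938, plus strand, 4 exons), which encodes Fra-1, had 0, 1, 3 and 5 read pairs in SAH mice, 4, 0 and 0 in Sham mice and 3, 1 and 0 in Naive mice. A count of 0 allows up to 3 read pairs, so differences in Fosl1 were not detectable at this depth.

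Atf3 and Maff were near the limit of detection as well. Atf3 (chromosome 1, 192994176 to 193007212, minus strand, 4 exons), a stress-induced ATF protein and a standard marker of injured neurons, had 18 to 30 read pairs in the SAH mice against 14 to 26 in the controls. Its log2 fold change of 0.27 had a 95% interval of −0.21 to 0.76. Maff (chromosome 15, 79177051 to 79189506, plus strand, 6 exons), a small MAF protein without an activation domain, had 8, 25, 96 and 21 read pairs in SAH mice 1 to 4, 11, 11 and 19 in Sham mice and 20, 17 and 5 in Naive mice. The high value was that of SAH mouse 3 alone, which also had the most choroid plexus transcripts, and their part in it was not tested. Maff was not called, although its log2 fold change was 1.56 (SE 0.59), and without SAH mouse 3 the value was 0.36.

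**Figure D1:**
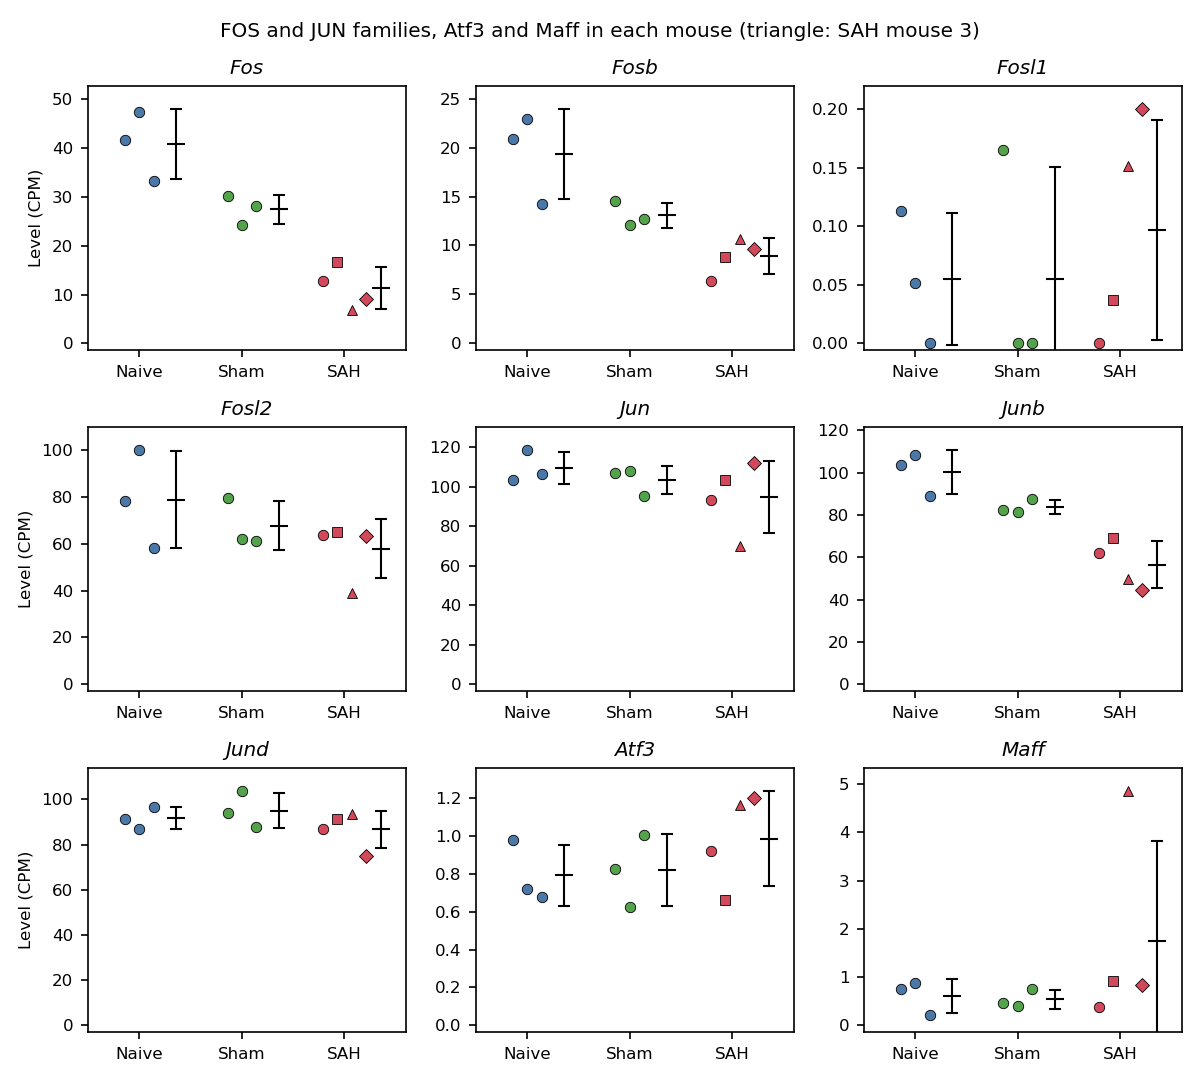
Level of each of the 9 genes in CPM (vertical axes, different scales) in Naive, Sham and SAH mice, with 1 point per mouse and the group mean ± SD beside the points (error bars that run below 0 are cut off). For Fos, Fosb and Junb all 4 SAH mice lie below all 6 control mice, and for Maff the 96 read pairs of SAH mouse 3 (triangle) stand alone.

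Between SAH and control, 3 of the 8 tested members were called, Fos, Fosb and Junb, and all 3 fell. Over all tested genes 4.68% were called, 1.54% as lower and 3.13% as higher. In the same 3 members the CPM of SAH and control did not overlap, an arrangement with SAH lower that 2.37% of tested genes showed. Since the family was picked with this comparison known, nothing is read from these shares. The 3 calls were made under each alternative run, and without the 3 libraries rich in choroid plexus transcripts the log2 fold changes were −1.24 for Fos, −1.13 for Fosb and −0.50 for Junb.

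The 2 control groups were then taken separately, in a fit of the 3 groups over 15134 genes. The 2 contrasts share the SAH mice and are set side by side. The family was picked with the SAH levels known, so nothing is read from the shares given here. Against Naive mice, Fos (−1.83, SE 0.22), Fosb (−1.12, SE 0.175) and Junb (−0.83, SE 0.122) were called as lower, 3 of 8 where 0.965% of all genes were, and in these 3 no SAH mouse reached a Naive mouse, as in 6.76% of all genes. Against Sham mice, Fos (−1.26, SE 0.223) and Junb (−0.57, SE 0.123) were called, 2 of 8 where 0.192% of all genes were called as lower, and Fosb had a log2 fold change of −0.56 (SE 0.178) and was not called. All 4 SAH mice lay below all 3 Sham mice in Fos, Fosb and Junb, as 4.45% of all genes did. The calls against Sham depended on the mice and the fit: 0 members were called with only the SAH and Sham mice in the fit, and only Fos at an adjusted p under 0.05. With mice left out, 0 members were called without SAH mouse 4 or without Sham mouse 5, 6 or 7, and Fos alone without Naive mouse 8, 9 or 10. The log2 fold changes moved less, from −1.52 to −1.09 for Fos and from −0.68 to −0.47 for Junb with each mouse left out in turn. Without the 3 libraries rich in choroid plexus transcripts Fos was called against Sham (−0.87), and Junb stood at −0.32 and was not called.

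The difference between Sham and Naive is not computed from the levels of the SAH mice, and it was tested. The SAH mice share in the filter on low counts, the scaling and the estimate of the spread. The log2 fold change of Fos from Naive to Sham was −0.57 (SE 0.225, 95% interval −1.06 to −0.08), with all 3 Sham mice below all 3 Naive mice. Fosb had a log2 fold change of −0.56 (SE 0.183) and Junb of −0.26 (SE 0.13, groups apart in CPM). In edgeR's quasi-likelihood test, 0 of the 8 members were called, with adjusted p = 1.0 for each. Fos (unadjusted p = 0.0259) and Fosb (unadjusted p = 0.00954) were the 2 members with an unadjusted p under 0.05, and DESeq2 also called 0. Over all 15134 genes 305 had an unadjusted p under 0.05 and 0.00661% were called, that is 1 gene. Groups that do not overlap with Sham lower were found in 4.14% of genes.

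**Figure D2:**
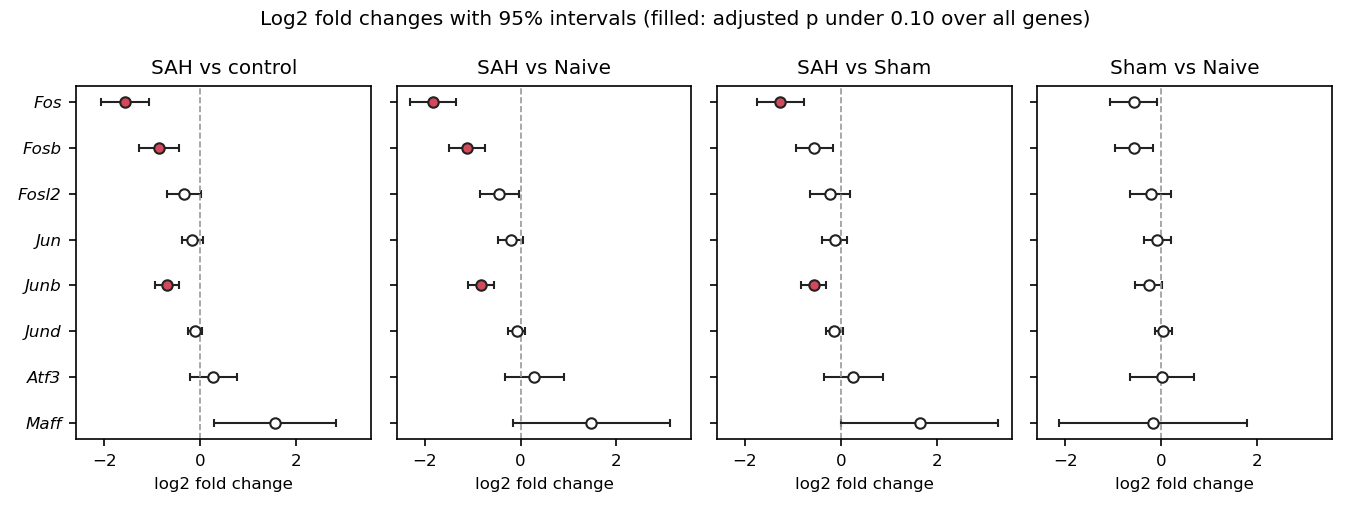
Log2 fold change (horizontal axis, first group minus second) of the 8 tested members in 4 comparisons, with 95% intervals. Filled points passed an adjusted p of 0.10 over all genes: Fos, Fosb and Junb against control and against Naive, Fos and Junb against Sham, and 0 members between Sham and Naive.

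Levels of different genes were compared per kilobase of annotated exon, which removes the effect of length on the counts but not that of unequal coverage along a transcript. In Naive mice Junb led with 54.5 ± 5.56 CPM per kilobase (SD, n = 3), followed by Jun (34.4 ± 2.48) and Jund (31.9 ± 1.67), which were within their spread of each other, then Fos (19.5 ± 3.41), Fosl2 (13.4 ± 3.54) and Fosb (5.12 ± 1.21). Atf3 (0.401), Maff (0.236) and Fosl1 (0.0321) were far below. In SAH mice the means of the 3 JUN genes were within their spread of each other, with 30.7 ± 6.05 for Junb, 30.1 ± 2.90 for Jund and 29.7 ± 5.69 for Jun (CPM per kilobase, SD, n = 4). In single SAH mice Junb to Jun ranged from 0.691 to 1.23 and Jun to Jund from 0.676 to 1.35. Fosl2 (9.85 ± 2.15 CPM per kilobase) stood above Fos (5.42 ± 2.07). The summed level of the 9 genes was 159.4 ± 13.8 CPM per kilobase in Naive, 139.8 ± 3.78 in Sham and 109.4 ± 11.6 in SAH.

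Within this pool Fos made up 12.2 ± 1.11% in Naive mice, 9.38 ± 0.965% in Sham mice and 4.84 ± 1.36% in SAH mice. Fos, Fosb and Junb together accounted for 49.5 ± 2.38%, 44.5 ± 2.57% and 34.9 ± 3.77%. The share of Jun and Jund was correspondingly larger in SAH, at 54.9 ± 3.15% against 41.8 ± 3.83% in Naive, and neither gene was called as higher in CPM. JUN family transcripts made up most of the pool in all groups, from 73.1% to 84.3% in single mice.

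**Figure D3:**
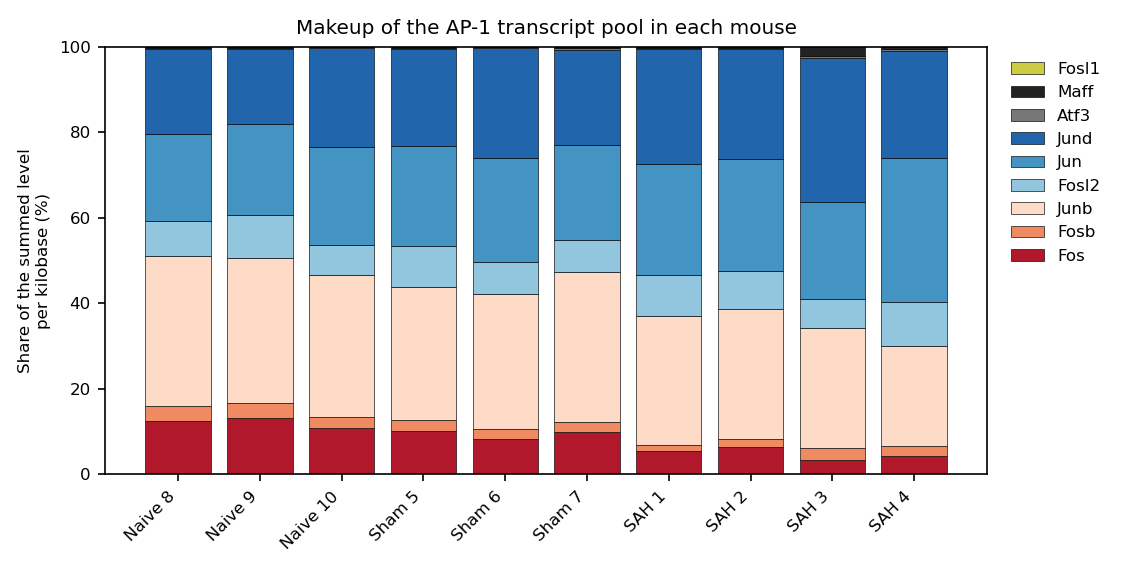
Share of each of the 9 genes in their summed level per kilobase (vertical axis, percent) in each of the 10 mice, ordered Naive, Sham, SAH. The 3 lowest segments, Fos, Fosb and Junb, together fill at least 46.7% of the bar in each Naive mouse and at most 38.6% in each SAH mouse.

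Ratios within a mouse do not depend on the scaling of its library. Fos exceeded Fosl2 per kilobase in each of the 6 control mice, with ratios of 1.06 to 1.6, and was below it in each of the 4 SAH mice, with ratios of 0.403 to 0.717. The ratio of Fos to Jun was 0.124 to 0.245 in SAH mice against 0.341 to 0.612 in controls. Fosb to Jun overlapped, at 0.0575 to 0.129 in SAH mice against 0.0942 to 0.17 in controls, with SAH mouse 3 above all 3 Sham mice. That of Junb to Jund was 0.834 to 1.18 in SAH mice against 1.23 to 1.95 in controls. Jun to Jund, in contrast, ranged from 0.676 to 1.35 in SAH mice and from 0.943 to 1.23 in controls, so the groups overlapped. These ratios are read from the same values as the levels and are a description of them.

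Fos and Fosb did not move in step in all SAH mice. The ratio of Fos to Fosb per kilobase was 3.60 to 4.22 in the control mice and 3.62 and 3.42 in SAH mice 1 and 2, while it was 1.14 in SAH mouse 3 and 1.70 in SAH mouse 4. These last mice had the lowest Fos and the highest Fosb among the SAH mice. They were also 2 of the 3 mice rich in choroid plexus transcripts. In the third, Sham mouse 7, the ratio was 3.98, within the range of the other control mice.

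**Figure D4:**
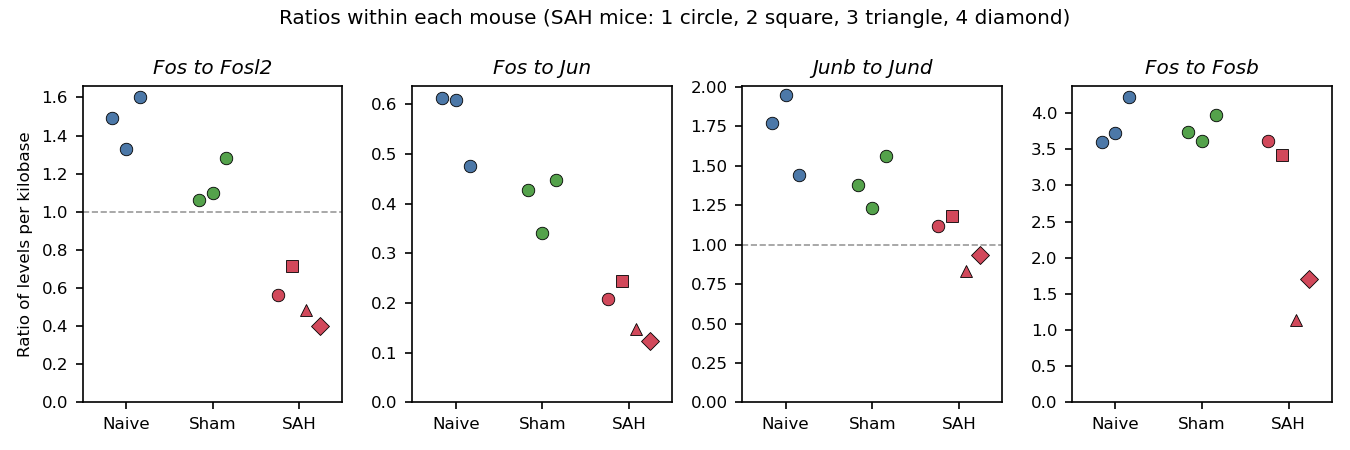
Ratio of the levels per kilobase of gene pairs (vertical axes) in each mouse, with dashed lines at equal levels for Fos to Fosl2 and Junb to Jund. SAH and control mice do not overlap in the first 3 panels, and in Fos to Fosb the SAH mice 3 (1.14) and 4 (1.70) stand below the other 8 mice.

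The genes around AP-1 were examined as lists written from general knowledge with earlier results of these data known, and they are described by their counts and medians between SAH and control, beside a median log2 fold change of −0.00237 over all tested genes. The first list holds 20 other immediate-early genes, all of which were tested. Of these, 12 were called as lower and 1 as higher, where 1.54% and 3.13% of all tested genes were, and 7 were not called. The median log2 fold change of the list was −0.48. The largest fall was that of Egr2, a zinc finger factor (−2.0, SE 0.333), with 0.404 to 3.35 CPM in SAH mice against 5.55 to 11.4 CPM in control mice. Npas4, an activity-dependent factor of neurons, fell by 1.33 on the log2 scale (5.45 to 11.2 CPM in SAH, 14.1 to 28.3 CPM in control). Arc, which removes glutamate receptors from synapses, fell by 1.13 (54.2 to 149.6 CPM in SAH, 209.8 to 327.7 CPM in control). Egr1 fell by 0.93, Ier2 by 0.94, Egr4 by 0.87, Nr4a1, an orphan nuclear receptor, by 0.73, and Dusp1, a phosphatase of MAP kinases, by 0.71. Sik1, Btg2, Nr4a2 and Nr4a3 fell by 0.56, 0.50, 0.47 and 0.44. The only member of the list called as higher was Ier3, a stress response gene, at 3.92 to 5.10 CPM in SAH mice against 2.26 to 3.84 CPM in control mice (log2 fold change 0.70, SE 0.153).

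The 7 that were not called included Egr3 (log2 fold change −0.04, 95% interval −0.14 to 0.06), Homer1 (−0.05), Ier5 (−0.04) and Klf6 (0.00), and Klf4 (0.37) and Cyr61 (0.39) had wide intervals. As with Fosb, counts summed over exons do not separate the transcript forms of a gene, Homer1 included. Against Sham mice 6 of the 20 were called as lower and 0 as higher, where 0.192% and 0.529% of all genes were. Against Naive mice 11 were called as lower and 1 as higher, where 0.965% and 2.03% of all genes were. Between Sham and Naive 0 of 20 were called by edgeR's quasi-likelihood test and 0 by DESeq2, 3 had an unadjusted p under 0.05 (Btg2, Dusp1 and Npas4), and 18 of 20 log2 fold changes were negative. Without the 3 libraries rich in choroid plexus transcripts, Arc, Dusp1, Egr1, Egr2, Egr4, Ier2 and Npas4 were called as lower, and Btg2, Ier3, Nr4a1, Nr4a2, Nr4a3 and Sik1 were not called.

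The next list holds the factors that switch these genes on. Of 26 genes for the SRF, CREB and MEF2 proteins, their coactivators and the kinases that act on them, 26 were tested. By edgeR's quasi-likelihood test 0 of them were called, against 4.68% of all tested genes. Here 6 had an unadjusted p under 0.05 (Elk3, Mapk8, Srf, Camk4, Crtc2 and Mef2a), and DESeq2 called Elk3 and Mef2a. The list had a median of −0.0115 and ranged from −0.14 (Crem) to 0.32 (Elk3). Srf itself had a log2 fold change of −0.10 (95% interval −0.20 to −0.01) and Creb1 one of −0.05 (−0.17 to 0.06). Phosphorylation, by which most of these factors are controlled, is not seen in RNA.

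Of 17 genes for other dimer partners (ATF, BATF, MAF and related proteins), 14 were tested. edgeR's quasi-likelihood test and DESeq2 called 0 of them, where edgeR called 4.68% of all tested genes. Of the 14, 0 had an unadjusted p under 0.05, and the median was 0.0645, from −0.23 (Mafa) to 0.30 (Mafk). Of 12 genes that AP-1 and CREB are known to drive in active neurons, edgeR called 1, where 4.68% of all tested genes were called. Nothing is read from this count. The gene was Penk, the enkephalin precursor, higher by 0.33 on the log2 scale (SE 0.0838). DESeq2 called Penk and, as lower, Vgf, a secreted neuronal peptide precursor with a log2 fold change of −0.17 in edgeR (95% interval −0.29 to −0.05), and these were the 2 with an unadjusted p under 0.05. The list had a median of −0.0755, with Bdnf at −0.19 (95% interval −0.43 to 0.05). Of 18 genes known as AP-1 targets in injured tissue, 10 were tested and 2 were called as higher, where 3.13% of all tested genes were. These were Vim, the intermediate filament of reactive glia (1.22, SE 0.166), and Hmox1, which degrades heme (0.79, SE 0.161), at 6.84 to 13.7 CPM in SAH mice against 4.81 to 6.39 CPM in control mice. This list had a median of 0.0765. Without the 3 libraries rich in choroid plexus transcripts Vim and Hmox1 were called and Penk was not.

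**Figure D5:**
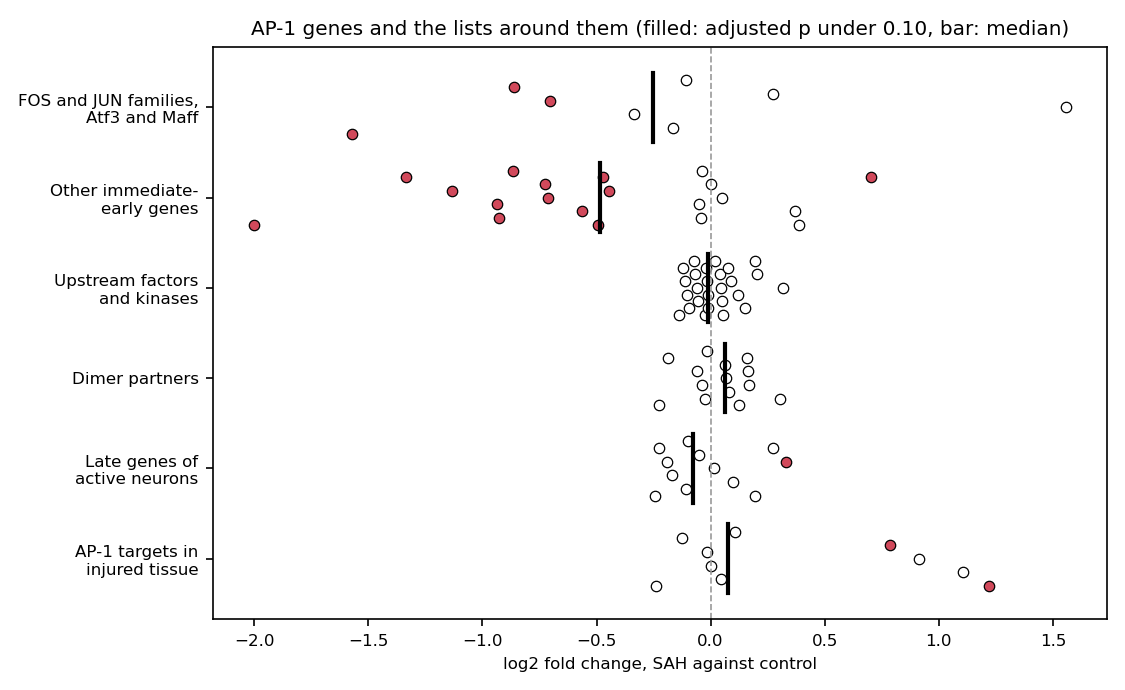
Log2 fold change between SAH and control (horizontal axis) of the tested AP-1 genes and of 5 gene lists, with 1 point per gene, filled where the adjusted p over all genes was under 0.10, and a bar at the median of each row. Filled points left of 0 number 3 in the AP-1 row and 12 in the immediate-early gene row, and 0 points are filled among 26 upstream factors and 14 dimer partners. The lists were chosen with these differences known, and the rows were not tested against each other.

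By the mean absolute difference between centred log2 CPM profiles over the 10 mice, the genes nearest to Fos among 14985 compared were Npas4 (0.219), Arc (0.233), Sp7 (0.289), Ier2 (0.318) and Egr1 (0.319), where the median gene differed by 0.779. The within-mouse ratio of Fos to Egr1, per kilobase, was 0.117 to 0.172 in SAH, 0.195 to 0.199 in Sham and 0.25 to 0.257 in Naive. That of Fos to Arc was 0.116 to 0.182 in SAH, 0.16 to 0.177 in Sham and 0.21 to 0.231 in Naive, so SAH and Sham overlapped. Nearest to Junb were Mag (0.0696), Shisa8, Mog (0.0961), Sema6a and Tmem163 (0.103), where the median gene differed by 0.35. Mag and Mog are myelin genes of oligodendrocytes. Each gene named as nearest was itself called as lower between SAH and control (log2 fold changes −1.33 to −0.55). The profiles include that difference, so nearness partly restates it and is not read as shared regulation or a shared cell type.

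Cell type markers were read beside these results. Of 12 markers of granule, pyramidal and inhibitory neurons, C1ql2 was called as higher (log2 fold change 0.34) and Sst as lower (−0.27) by edgeR and DESeq2. DESeq2 also called the pyramidal marker Spink8 as higher, at 0.45 in edgeR, which called it against Naive mice (0.61). Over the 12 the median was −0.0105, and their summed level was 1670 to 1770 CPM in SAH and 1660 to 1800 CPM in control mice. The 4 oligodendrocyte markers were all called as lower, where edgeR called 1.54% of all tested genes as lower. Their summed level was 381 to 467 CPM in SAH and 560 to 719 CPM in control mice. Higher calls were made by edgeR for 2 of 4 endothelial, 2 of 4 mural, 3 of 4 meningeal and 1 of 4 microglial markers, and by DESeq2 for 1, 2, 2 and 1 of them. Over all tested genes edgeR called 3.13% as higher. Of 4 astrocyte markers edgeR's quasi-likelihood test called 0 and DESeq2 called Aldh1l1, with an unadjusted p under 0.05 for 2. Of 3 cortical markers 0 were called by edgeR and 0 by DESeq2, with an unadjusted p under 0.05 for 2, and of 3 thalamic markers 0 by any of these. The 3 neutrophil and 3 T cell markers were too low to be tested. For the choroid plexus 0 of 4 markers were called by edgeR and 0 by DESeq2, with an unadjusted p under 0.05 for 1 (Kl) and a median log2 fold change of 1.19, at 98.0 to 1200 CPM in SAH and 42.9 to 812 CPM in control mice. Against Naive mice, where Fos, Fosb and Junb were called, the choroid plexus marker Ttr was called as higher by both tools (4.30, SE 1.13), and the median of the 4 was 2.23. Between Sham and Naive the log2 fold change of Ttr was 3.54 (SE 1.13), and it was not called. Of the 3 red cell markers, Hba-a1 and Hbb-b1 were at 0 in all 10 mice. Pairs with several alignments or several genes were not counted, and their part in these zeros was not tested. The zeros are therefore not read as an absence of red cell RNA. The third marker, Alas2, stood at 1.06 to 3.68 CPM in SAH and 1.32 to 2.57 CPM in control mice (log2 fold change 0.357) and was not called. The part of these cell types in the levels of the AP-1 genes was not tested.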

How the data were processed

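Total RNA of whole bilateral hippocampus (10 mice) was depleted of ribosomal RNA and made into stranded libraries, sequenced as 50-base read pairs. The authors aligned the pairs to mm9 with STAR and counted them on the exons of each gene name with featureCounts 1.6.2, reverse-stranded, leaving out pairs with several alignments or several genes. The deposited values are raw counts of this kind, and no 2 libraries of a group were alike enough to be duplicates.

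From them CPM was computed after TMM scaling, and edgeR 4.0.16 (R 4.3.3) was run with filterByExpr (minimum count 10, minimum total 15), its quasi-likelihood test and a Benjamini-Hochberg threshold of 0.10, the threshold that the study used with DESeq2. SAH against control was a fit of 2 groups, and pairwise contrasts came from a fit of 3 groups. The SE is the log2 fold change divided by the square root of F, in absolute value. Genes named are the members, the extremes and called genes of the lists, and the 5 nearest profiles. Others, such as the list genes with intervals and the motif windows, were chosen after values were seen. Scripts were tested on simulated data with 200 changed genes. Alternatives were DESeq2 1.42.0, its size factors, library size alone, a threshold of 0.05, a filter of 10 counts or more in each mouse, no filter, other groupings in the fit and each mouse left out. Leaving out the 3 choroid-rich libraries was added after seeing the data. The members and lists were chosen with earlier results of these data known. P-values set a difference between groups against the spread between mice, which was estimated with information shared across genes.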

Additional observations from a re-analysis of the deposited data

Results flagged for a closer look

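In 50 groups of 4 or more mice examined for a mouse apart from the rest, Dixon's test at the 95% level marked 3, where chance marks about 1 in 20. All 3 were SAH mouse 3. Fosl2 was 38.9 CPM there against 63.2 to 65.1 CPM in the remaining SAH mice. Maff was 4.85 CPM there and 0.387 to 0.919 CPM in the others. Nr4a2, an orphan nuclear receptor of the immediate-early list, was 48.8 CPM there and 61.7 to 64.2 CPM in the others.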

How the results depend on the processing

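Between SAH and control, Fos, Fosb and Junb were called under all alternatives run, and Maff joined them under DESeq2 (log2 fold change 1.6) and without SAH mouse 1 (1.88). Against Naive mice the 3 were also called under all alternatives, and between Sham and Naive 0 members were called under any. Against Sham mice 2 members were called, but 0 with only those groups in the fit, 1 at an adjusted p under 0.05, 1 without the 3 libraries with the most choroid plexus transcripts, and 0 to 2 with each mouse left out. Without those 3 libraries 9 in place of 16 list genes were called between SAH and control, and the log2 fold change of Atf3 against Naive turned from 0.29 to −0.04. The cause was not tested. Maff could not be tested with at least 10 counts in every mouse. Calls that involve SAH rest on levels known when the family was picked, so their stability is a description.

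Over all genes, 701 were called between SAH and control, 1030 by DESeq2, 369 at an adjusted p under 0.05, 330 without the 3 libraries and 308 to 1093 with each mouse left out. Against Sham mice the count was 109, with 302 under DESeq2, 182 without a filter, 12 with only those groups in the fit, 49 at an adjusted p under 0.05 and 6 to 215 with each mouse left out. Against Naive mice it was 453, with 744 under DESeq2, 282 with only those groups, 260 at an adjusted p under 0.05 and 109 to 683 with each mouse left out. Between Sham and Naive it was 1, with 2 under DESeq2, 3 with only those groups and 4 without the 3 libraries.

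No paired analysis was possible because each mouse number belongs to 1 mouse and the groups share none. At these depths counting error is 8.6% of the lowest Fos count (134) and 45% of the lowest Maff count (5), so Maff, Atf3 and Fosl1 are limited by depth.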

Other observations

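Among the 11 list genes that the filter on low counts left out of the comparison between SAH and control, 2 had all 4 SAH mice above all 6 control mice in CPM, as had 42 (0.924%) of the 4545 genes with a count that it left out. They were chosen for this pattern, so their values and those of Timp1 are a description and no p-value is given. Batf, an AP-1 partner of lymphocytes and myeloid cells, had 5, 9, 7 and 7 read pairs in the SAH mice, against 0 to 5 in controls. Ccl2, a chemokine that draws monocytes, had 6, 5, 13 and 7 read pairs in the SAH mice, against 0 to 2 in controls. Timp1, an inhibitor of matrix proteases, had 9, 6, 79 and 23 read pairs in SAH mice 1 to 4 and 2 to 6 in control mice, so that its highest value, like that of Maff, was in SAH mouse 3.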
